A study of Mus musculus with 15 samples.

Results

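Activated lung ILC2 that did not carry the *Il10* reporter (ILC2act) were set against splenic Treg cells that did not carry it either (Treg10-). The rule took the 3 ILC2act and 2 Treg10- libraries, 5 of the 10 RNA-seq libraries made from reporter mice and of 15 in the whole series, and every gene above 1 FPKM (read counts divided by gene length and by how many reads mapped) in at least 2 of the 5. Of 23529 genes with a value in every reporter library, 11308 were tested. Both groups came from 10BiTFoxp3GFP mice, which carry the Thy-1.1 coding sequence inside an *Il10* bacterial artificial chromosome and a GFP cassette in the *Foxp3* locus. All mice had received IL-33 by intraperitoneal injection. ILC2act were sorted from perfused, minced and enzyme-digested lungs as Thy-1.1- Lin- CD45+ Thy-1.2+ ST2+ cells, and Treg10- from the spleen as Thy-1.1- cells that were positive for Foxp3GFP. The source label of the Treg libraries names lung ILC2, whereas their titles, descriptions and cell type label give Treg cells, which was used. Cells of several mice were pooled for each library, so p-values measure the spread between pools. The deposited names of ILC2act 1 and 3 share a tag that differs from that of ILC2act 2. Its meaning is not given in the sources used here, and the 3 were taken as separate samples. The names of the 2 Treg10- libraries also differ from each other in form. Lineage, organ and organ preparation differ together in this comparison and cannot be told apart.

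ILC2 are tissue-resident lymphocytes that lack a rearranged antigen receptor. They depend on the transcription factor GATA3, respond to the alarmins IL-33, IL-25 and TSLP, and release IL-5, IL-13, GM-CSF and amphiregulin, through which they recruit eosinophils, induce mucus and aid epithelial repair. Treg cells are CD4+ T cells that depend on FOXP3, signal through the T cell receptor and CD28, and restrain other lymphocytes through surface receptors, IL-2 consumption and suppressive cytokines.

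The markers of each cell type were measured in the library that should hold them. *Arg1*, which encodes the arginine-degrading enzyme of lung ILC2 (chr10:24915206-24927470), read 863, 753 and 812 FPKM in ILC2act 1, 2 and 3 and 0.826 and 0.678 FPKM in Treg10- 1 and 2. *Gata3* (chr2:9857077-9878600) read 322, 382 and 346 FPKM against 59.4 and 72.2 FPKM, and *Il1rl1*, the gene for the IL-33 receptor ST2 (chr1:40439648-40465414), 128, 109 and 128 against 21.6 and 20.6 FPKM. These 3 genes did not overlap between groups, and *Gata3* and *Il1rl1* were also read in every Treg10- library. *Foxp3* (chrX:7579675-7595243) read 0.0521, 0.0296 and 0.0565 FPKM in ILC2act and 88.4 and 104 FPKM in Treg10-. *Cd3e*, a subunit of the T cell receptor complex (chr9:44998742-45009590), read 4.35, 6.82 and 6.62 against 543 and 505 FPKM. Coordinates are those of the deposited table, on GRCm38. The plot of identity and effector genes shows each library.

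**Figure D1:**
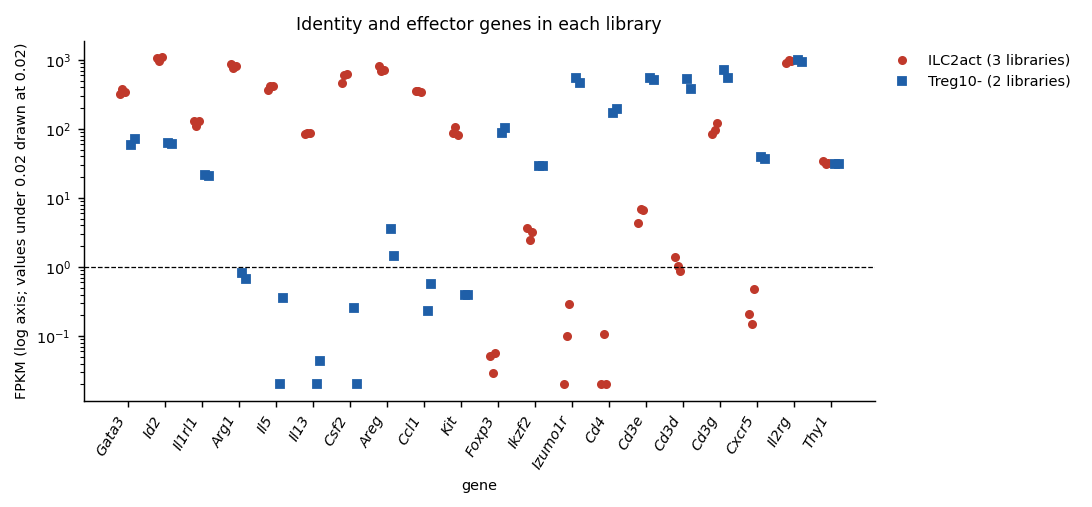
FPKM of 20 genes in each library (log axis; circles, 3 ILC2act libraries; squares, 2 Treg10- libraries; dashed line, 1 FPKM). *Il2rg* and *Thy1* lie at the same level in all 5 libraries, and *Cd3g* in ILC2act reached 85.2, 97.4 and 121 FPKM while *Cd3d* stayed between 0.872 and 1.41 FPKM.

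Between 10517 and 10768 genes were above 1 FPKM in each library. From the size of the smallest steps between low values, relative depth was estimated as 0.881 and 0.740 in ILC2act 2 and 3, and 0.647 and 1.05 in Treg10- 1 and 2, each against ILC2act 1. Read counts are not part of the table, so no counting interval is given. The range over replicates was more than 2-fold for 438 genes (3.87%) in ILC2act and 250 genes (2.21%) in Treg10-. *Ddx3y*, a gene of the Y chromosome, read 16.0 to 25.6 FPKM in the 5 libraries, and *Xist* at most 0.0051 FPKM. Genes of other cell types also differed between groups. The summed level of 12 genes of alveolar and airway epithelium was 555 to 1029 FPKM in ILC2act and 20.7 and 25.2 FPKM in Treg10-, where 8 of the 12 were listed at 0 in both libraries. Erythroid genes summed to 53.0 to 81.3 FPKM in ILC2act and to 3378 and 10464 FPKM in Treg10-. These lists are described below with the genes they hold. Their part in the other results was not tested, except that the listed markers themselves were left out in an alternative.

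In all, 986 genes (8.72% of those tested) were higher in ILC2act and 1070 (9.46%) were higher in Treg10-, where a call needs a limma adjusted p below 0.05 together with a difference of 2-fold or more. Together they made up 18.2% of the genes tested. The groups did not overlap for any of them, but with so few libraries a call nearly requires this. The lack of overlap is therefore not further evidence. Of the 986, 340 were below 1 FPKM in both Treg10- libraries, 194 differed at least 8-fold and 43 at least 32-fold. Of the 1070, 220 were below 1 FPKM in every ILC2act library, 144 differed at least 8-fold and 35 at least 32-fold. The median log2 difference over all genes tested was -0.05 (ILC2act minus Treg10-, with FPKM under 1 set to 1, which understates the difference of genes that were low in one group). With the listed markers of other cell types left out, 967 and 1050 genes were called. Only those markers were removed, so these counts do not show what other transcripts of such cells contribute.

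**Figure D2:**
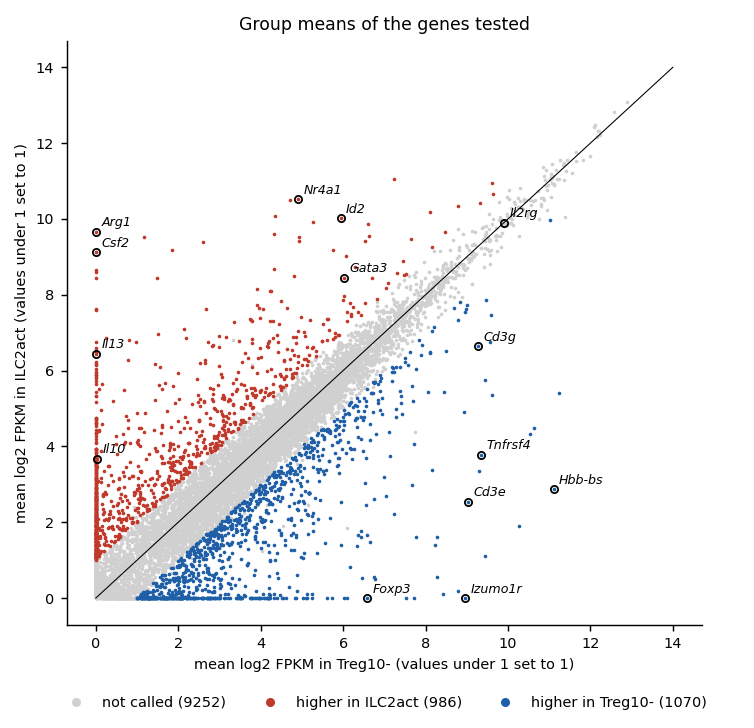
Mean log2 FPKM of each of the 11308 genes in Treg10- (x axis, 2 libraries) and ILC2act (y axis, 3 libraries), with values under 1 FPKM set to 1 and the line of equal means. The 986 genes higher in ILC2act are red and the 1070 higher in Treg10- blue; genes on an axis were below 1 FPKM in the other group.

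The 15 genes of largest difference towards ILC2act included enzymes, cytokines and a chemokine. After *Arg1*, with a log2 difference of 9.66 (SE 0.10, limma adjusted p = 6.91e-08), came *Csf2* (9.13), *Il5* (8.64), *Ccl1* (8.45) and *Areg* (8.36). Genes of signalling and secretion followed. *Pcsk1*, which encodes a protease that matures peptide hormones, read 202, 164 and 220.4 FPKM in ILC2act and 0.971 and 0.392 FPKM in Treg10-. *Dkk3*, which encodes a secreted protein of the Dickkopf family, read 119, 103 and 104 FPKM in ILC2act and 0.356 and 0.972 FPKM in Treg10-. *Lif*, a cytokine of the IL-6 family, read 90.5, 139 and 125 FPKM in ILC2act and 1.25 and 1.14 FPKM in Treg10-, and *Hs3st1*, a heparan sulfate sulfotransferase, 101, 114 and 79.4 FPKM in ILC2act and 0.0473 and 0.146 FPKM in Treg10-. The lung epithelial genes *Sftpc* and *Scgb1a1* stood among the same 15 and are described with the other cell types. Towards Treg10-, the largest differences outside the globin genes included those of *Izumo1r* (-8.96), *Cd3d* (-8.60), *Cd6* (-7.72), *Cd5* (-7.71) and *Cd4* (-7.52), all genes of T cells. *Art2b*, which encodes an ADP-ribosyltransferase of the T cell surface, read 2.18, 1.08 and 1.196 FPKM in ILC2act and 118 and 101 FPKM in Treg10-.

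The transcription factors of the ILC2 lineage were divided. Of 12 regulators tested, 6 were higher in ILC2act, none in Treg10-, and 6 were not called (median log2 difference 1.46, against -0.05 over all genes). *Id2*, which innate lymphoid cells need to restrain E proteins, read 1062, 965 and 1094 FPKM in ILC2act and 61.9 and 60.6 FPKM in Treg10-, a log2 difference of 4.08 (SE 0.11, limma adjusted p = 1.22e-06). *Lmo4*, a LIM-domain adaptor, read 229, 179.7 and 187 FPKM in ILC2act and 8.16 and 4.95 FPKM in Treg10-, and *Pparg*, a lipid-sensing nuclear receptor, 75.6, 65.2 and 79.9 FPKM in ILC2act and 6.54 and 5.04 FPKM in Treg10-. *Gata3* was higher in ILC2act by 2.42 (SE 0.13, limma adjusted p = 2.18e-05) on the log2 scale. *Nfil3* and *Rora*, which ILC2 need for development, differed by 2.51 and 1.97. The call for all 6 held when any 1 library was left out. In contrast, *Ets1* read 346, 327 and 367 FPKM in ILC2act and 360.2 and 454 FPKM in Treg10-, *Gfi1* 27.3, 26.04 and 30.2 FPKM in ILC2act and 24.7 and 31.6 FPKM in Treg10- and *Bcl11b* 32.8, 43.8 and 34.96 FPKM in ILC2act and 27.6 and 53.7 FPKM in Treg10-. For *Ets1* the 95% interval of the log2 difference ran from -0.54 to 0.10.

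Regulators that T cells share were also divided, with 3 of 15 higher in ILC2act and 6 in Treg10- (median -0.49). The shares over all genes tested were 8.72% and 9.46%. *Id3*, the related inhibitor that naive and regulatory T cells use, read 5.51, 10.6 and 8.27 FPKM in ILC2act and 215 and 192 FPKM in Treg10-, so that *Id2* and *Id3* differed in opposite directions. *Foxo1*, a factor that maintains quiescence and recirculation, read 10.2, 10.2 and 10.7 FPKM in ILC2act and 38.7 and 58.6 FPKM in Treg10-, and *Satb1*, a chromatin organizer of T cells, 5.76, 5.56 and 5.47 FPKM in ILC2act and 16.4 and 22.7 FPKM in Treg10-. *Themis*, needed for thymic selection, was higher in Treg10-, a log2 difference of -2.37 (SE 0.25, limma adjusted p = 4.62e-04). *Runx3*, a factor of ILC2 and cytotoxic cells, read 29.8, 35.02 and 31.9 FPKM in ILC2act and 12.2 and 15.8 FPKM in Treg10- and was higher in ILC2act. The E protein genes *Tcf3* and *Tcf12* were not called, with log2 differences of -0.08 and -0.08. *Tcf7*, the gene for TCF-1, read 39.5, 45.5 and 42.7 FPKM in ILC2act and 78.4 and 88.4 FPKM in Treg10-, a log2 difference of -0.97 (SE 0.11, limma adjusted p = 6.63e-04), just under the fold required. The list of T cell regulators and E proteins had 1 gene higher in ILC2act without Treg10- 1.

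Genes of Treg identity were higher in Treg10- in 13 of 18 cases and in none in ILC2act (median -2.32). *Izumo1r*, which encodes folate receptor 4, read 0, 0.0996 and 0.296 FPKM in ILC2act and 547 and 454 FPKM in Treg10-. *Gpr83*, an orphan receptor of Treg cells, read 0, 0.0504 and 0.0899 FPKM in ILC2act and 52.02 and 46.4 FPKM in Treg10-, and *Lrrc32*, which encodes the TGF-beta anchor GARP, 0.214, 0.528 and 0.221 FPKM in ILC2act and 30.9 and 39.4 FPKM in Treg10-. *Ikzf2*, the gene for Helios, read 3.65, 2.46 and 3.17 FPKM in ILC2act and 29.1 and 28.6 FPKM in Treg10-, with no overlap. The TNF receptor genes *Tnfrsf4* (OX40) and *Tnfrsf9* (4-1BB) differed by -5.56 and -4.33 on the log2 scale. Other genes of this list were read at substantial levels in both groups. *Tnfrsf18*, which encodes GITR, read 189, 208 and 164 FPKM in ILC2act and 579 and 422 FPKM in Treg10-. *Ctla4*, the coinhibitory receptor, read 144, 92.2 and 104 FPKM in ILC2act and 246 and 212 FPKM in Treg10-, a log2 difference of -1.04 (SE 0.19, limma adjusted p = 0.00612). The call for *Ctla4* was lost without ILC2act 2, ILC2act 3, Treg10- 1 or Treg10- 2, with log2 differences of -0.90 to -1.14 (limma adjusted p = 0.0192 to 0.145). *Il2ra*, the high-affinity chain of the IL-2 receptor, read 47.2, 45.7 and 42.3 FPKM in ILC2act and 69.1 and 64.3 FPKM in Treg10-, under the fold required, and *Ebi3*, a subunit of IL-35 and IL-27, 49.1, 59.8 and 55.7 FPKM in ILC2act and 54.1 and 48.7 FPKM in Treg10-.

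Genes of the T cell receptor and its signalling were mostly higher in Treg10-. Of 22 genes, 16 were higher in Treg10- and none in ILC2act (median -2.60). *Cd3d* read 1.41, 1.05 and 0.872 FPKM in ILC2act and 525 and 373 FPKM in Treg10-, and the coreceptor gene *Cd4* 0, 0.107 and 0 FPKM in ILC2act and 172 and 195 FPKM in Treg10-. *Cd5* and *Cd6*, which encode modulators of receptor signalling, were near or below 1 FPKM in ILC2act, at 0.3895, 0.111 and 0.329 and 1.33, 1.24 and 1.96 FPKM, against 214 and 206 and 304 and 319 FPKM in Treg10-. *Cd28*, the main costimulatory receptor, read 4.29, 2.96 and 3.05 FPKM in ILC2act and 84.9 and 87.9 FPKM in Treg10-. *Cd3g* was the exception among the CD3 chains, since it reached 85.2, 97.4 and 121 FPKM in ILC2act, although it was higher in Treg10- (709 and 541 FPKM, -2.63 on the log2 scale). *Lck*, the kinase that starts the signal, read 59.5, 50.8 and 52.1 FPKM in ILC2act and 669.7 and 729.5 FPKM in Treg10-, and the adaptor gene *Lat* 80.1, 100.5 and 95.04 FPKM in ILC2act and 351 and 372 FPKM in Treg10-. Some signalling genes were close between the groups. *Zap70*, the kinase recruited to CD3, read 93.3, 96.6 and 92.8 FPKM in ILC2act and 112 and 109.5 FPKM in Treg10-, and *Lcp2*, which encodes the adaptor SLP-76, 147, 141 and 151 FPKM in ILC2act and 158 and 166 FPKM in Treg10-. *Skap1*, an adaptor of integrin activation, had a log2 difference of -0.10, with a 95% interval from -0.36 to 0.17. *Thy1* read 34.4, 31.1 and 31.8 FPKM in ILC2act and 31.2 and 31.2 FPKM in Treg10-. It cannot be told from these values which allele of *Thy1* the reads came from. In the separately normalized table of lung ILC2, *Thy1* read 743, 638 and 939 FPKM after PBS and 586 and 580 FPKM after IL-33. The reason for that gap was not tested, so the level given here is uncertain.

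**Figure D3:**
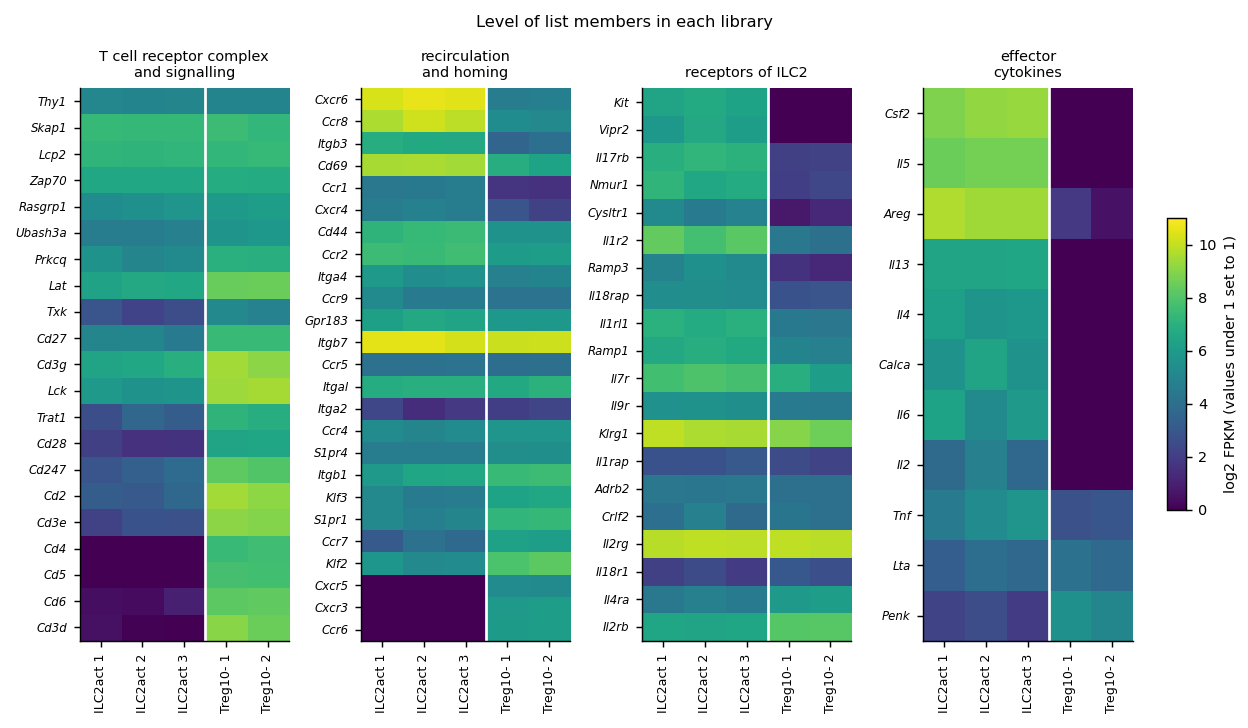
Log2 FPKM (values under 1 set to 1) of tested members of 4 gene lists in each library, ordered in each list by the difference between ILC2act and Treg10-. In the first list the CD3 and coreceptor genes at the foot are dark in ILC2act while *Skap1*, *Lcp2* and *Zap70* at the top have the same colour in all 5 libraries; in the last list 7 of 11 genes are below 1 FPKM in both Treg10- libraries.

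Of the 31 lists described here, effector cytokines had the largest median difference towards ILC2act, 5.89 on the log2 scale. Of 14 genes, 11 were tested, 9 were higher in ILC2act, 1 in Treg10- and 1 was not called. *Csf2*, the gene for GM-CSF (chr11:54247269-54249899), read 465, 596 and 633 FPKM in ILC2act and 0.253 and 0 FPKM in Treg10-. *Il5*, the eosinophil growth factor (chr11:53720793-53725103), read 368, 417 and 418 FPKM in ILC2act and 0 and 0.357 FPKM in Treg10-. *Il13*, which drives mucus and alternative macrophage activation (chr11:53631322-53634702), read 85.5, 87.1 and 87.8 FPKM in ILC2act and 0 and 0.04304 FPKM in Treg10-. The 3 genes lie on chromosome 11, and no library of one group reached a library of the other. *Il4* read 75.1, 52.5 and 58.4 FPKM in ILC2act and was listed at 0 in both Treg10- libraries. *Areg*, an epidermal growth factor receptor ligand of tissue repair, read 818, 700.1 and 701 FPKM in ILC2act and 3.52 and 1.43 FPKM in Treg10-. *Il6*, a cytokine that Th2 cells and ILC2 release, read 83.3, 38.8 and 62.2 FPKM in ILC2act and 0.952 and 0 FPKM in Treg10-. *Il2* was at 13.99, 27.97 and 12.8 FPKM in ILC2act and 0 and 0.174 FPKM in Treg10-. *Calca*, which encodes the neuropeptide CGRP, read 49.2, 86.95 and 49.1 FPKM in ILC2act and was listed at 0 in both Treg10- libraries. *Tnf* read 23.2, 39.8 and 53.5 FPKM in ILC2act and 6.64 and 7.72 FPKM in Treg10-, a log2 difference of 2.36 (SE 0.33, limma adjusted p = 0.00154). The call for *Tnf* was lost without Treg10- 1 or Treg10- 2, with log2 differences of 2.25 to 2.47 (limma adjusted p = 0.07403 to 0.09197). The gene higher in Treg10- was *Penk*, which encodes the opioid precursor proenkephalin, at 4.73, 6.06 and 3.76 FPKM in ILC2act and 45.4 and 33.2 FPKM in Treg10-. *Lta*, which encodes lymphotoxin alpha, read 9.89, 15.8 and 13.01 FPKM in ILC2act and 17.00 and 13.4 FPKM in Treg10- and was not called. *Il9*, *Il22* and *Il3* were below 1 FPKM in every library and were not tested.

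Chemokine genes followed the same direction, with 6 of 8 tested genes higher in ILC2act, none in Treg10-, and a median of 2.65. *Ccl1*, the ligand of CCR8 (chr11:82176665-82179812), read 358, 351 and 338 FPKM in ILC2act and 0.232 and 0.571 FPKM in Treg10-. *Cxcl2*, a neutrophil attractant, read 69.04, 63.8 and 63.3 FPKM in ILC2act and 0.398 and 0.343 FPKM in Treg10-, and its relative *Cxcl1* 14.2, 13.7 and 15.7 FPKM against a listed 0 in both Treg10- libraries. *Cxcl10*, an interferon-inducible ligand of CXCR3, read 42.6, 40.3 and 31.3 FPKM in ILC2act and 6.49 and 5.05 FPKM in Treg10-. *Ccl4* was not called, at 3.87, 3.16 and 1.21 FPKM in ILC2act and 1.07 and 3.304 FPKM in Treg10-.

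Promoter sequences are printed for 4 of these effector genes and for the 2 Treg10- genes *Foxp3* and *Izumo1r*, because each holds the motif of the GATA factors in the 250 bases before to 50 bases after its start. Sequences are those of RefSeq on GRCm38.p6, written along the strand of the gene. The motif was searched on both strands as GATA preceded by A or T and followed by A or G, and matches are in capitals.
Il5 (chr11:53720544-53720843, plus strand): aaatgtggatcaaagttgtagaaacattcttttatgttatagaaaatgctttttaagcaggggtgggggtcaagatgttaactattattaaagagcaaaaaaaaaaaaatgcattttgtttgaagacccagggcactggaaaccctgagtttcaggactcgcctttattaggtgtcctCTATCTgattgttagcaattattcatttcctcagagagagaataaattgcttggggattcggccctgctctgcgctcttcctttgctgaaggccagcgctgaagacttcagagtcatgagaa
Il13 (chr11:53634653-53634952, minus strand): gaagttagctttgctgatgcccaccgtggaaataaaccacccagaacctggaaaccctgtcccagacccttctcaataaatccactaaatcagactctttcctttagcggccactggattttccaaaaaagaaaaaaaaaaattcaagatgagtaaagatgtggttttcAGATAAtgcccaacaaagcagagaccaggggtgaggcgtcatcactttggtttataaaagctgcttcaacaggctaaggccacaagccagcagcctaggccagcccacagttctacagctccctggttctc
Csf2 (chr11:54249850-54250149, minus strand): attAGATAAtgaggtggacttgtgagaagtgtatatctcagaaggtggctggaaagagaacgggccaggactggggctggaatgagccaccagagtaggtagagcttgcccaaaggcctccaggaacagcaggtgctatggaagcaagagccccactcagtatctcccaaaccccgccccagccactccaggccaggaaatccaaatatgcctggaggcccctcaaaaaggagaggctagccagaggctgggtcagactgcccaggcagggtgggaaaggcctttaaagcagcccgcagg
Ccl1 (chr11:82179763-82180062, minus strand): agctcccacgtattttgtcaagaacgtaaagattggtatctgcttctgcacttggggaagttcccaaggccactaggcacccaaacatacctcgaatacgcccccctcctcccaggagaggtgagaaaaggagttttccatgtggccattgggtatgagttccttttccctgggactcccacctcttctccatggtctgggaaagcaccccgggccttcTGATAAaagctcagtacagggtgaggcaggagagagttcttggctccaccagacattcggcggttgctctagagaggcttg
Foxp3 (chrX:7579426-7579725, plus strand): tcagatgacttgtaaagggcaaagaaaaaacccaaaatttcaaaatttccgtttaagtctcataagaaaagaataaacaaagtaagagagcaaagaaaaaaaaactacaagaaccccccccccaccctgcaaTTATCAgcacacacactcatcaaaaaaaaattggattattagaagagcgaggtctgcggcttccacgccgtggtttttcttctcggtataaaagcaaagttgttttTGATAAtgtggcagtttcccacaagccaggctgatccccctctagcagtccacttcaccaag
Izumo1r (chr9:14903718-14904017, minus strand): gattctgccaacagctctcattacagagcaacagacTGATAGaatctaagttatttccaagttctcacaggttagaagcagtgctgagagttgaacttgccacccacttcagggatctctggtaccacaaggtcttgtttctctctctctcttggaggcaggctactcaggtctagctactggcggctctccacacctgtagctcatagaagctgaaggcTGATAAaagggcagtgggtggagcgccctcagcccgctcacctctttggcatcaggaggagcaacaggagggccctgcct
A promoter was found for 8352 of the tested genes, and 18.6% of these held the motif. The share was 19.3% of 690 promoters of genes higher in ILC2act and 23.7% of 772 of genes higher in Treg10-. The AP-1 motif TGANTCA, added after the values were seen, was in 4.72% of all promoters, 8.55% of those of genes higher in ILC2act and 6.61% of those higher in Treg10-. The shares are descriptions of letters in a short window and carry no test.

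Receptors through which ILC2 sense their surroundings were higher in ILC2act in 12 of 20 tested cases and in Treg10- in 2 (median 1.57). *Kit*, the receptor of stem cell factor, read 85.9, 106 and 82.5 FPKM in ILC2act and 0.396 and 0.392 FPKM in Treg10-, and *Vipr2*, a receptor of vasoactive intestinal peptide, 57.9, 101 and 71.1 FPKM in ILC2act and 0.331 and 0.407 FPKM in Treg10-. *Il17rb*, a chain of the IL-25 receptor, read 121, 153 and 136 FPKM in ILC2act and 4.27 and 4.51 FPKM in Treg10-. *Nmur1*, the neuromedin U receptor by which neurons activate ILC2, read 147, 95.7 and 109 FPKM in ILC2act and 4.08 and 5.02 FPKM in Treg10-. Receptors of lipid and peptide mediators lay in the same direction. *Cysltr1*, for cysteinyl leukotrienes, read 37.01, 23.7 and 29.1 FPKM in ILC2act and 1.68 and 2.39 FPKM in Treg10-, and *Ramp3*, a chain of the receptors for adrenomedullin and CGRP, 30.3, 45.95 and 38.2 FPKM in ILC2act and 3.101 and 2.33 FPKM in Treg10-. *Il1r2*, the decoy receptor of IL-1, read 331, 212 and 289 FPKM in ILC2act and 20.9 and 16.6 FPKM in Treg10-. *Il7r*, the IL-7 receptor alpha chain, was higher in ILC2act at 204, 246 and 217 FPKM in ILC2act and 119 and 71.5 FPKM in Treg10-, a log2 difference of 1.26 (SE 0.21, limma adjusted p = 0.00382). The call for *Il7r* was lost without Treg10- 2, with a log2 difference of 0.90 (limma adjusted p = 0.0374). The 2 genes higher in Treg10- were *Il2rb*, the IL-2 receptor beta chain, at 88.5, 86.8 and 88.1 FPKM in ILC2act and 271 and 285 FPKM in Treg10-, and *Il4ra*, the IL-4 receptor alpha chain, at 21.1, 27.7 and 23.3 FPKM in ILC2act and 59.5 and 70.8 FPKM in Treg10-. *Il2rg*, the common gamma chain, read 909.8, 993 and 964 FPKM in ILC2act and 982 and 928 FPKM in Treg10-, with a log2 difference of 0.00 and a 95% interval from -0.30 to 0.30. *Klrg1*, a marker of activated ILC2 and of effector Treg cells, read 1000.1, 803 and 761 FPKM in ILC2act and 516 and 376 FPKM in Treg10-, a log2 difference of 0.95 (SE 0.19, limma adjusted p = 0.00787), under the fold required. *Il1rap*, the coreceptor of ST2, and *Crlf2*, a chain of the TSLP receptor, were not called, with differences of 0.50 and 0.04.

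Most genes of the *Arg1* pathway were not called. Of 10 tested genes of arginine and polyamine metabolism, 2, among them *Arg1*, were higher in ILC2act and 1 in Treg10- (median 0.11). Over all genes tested, 8.72% and 9.46% were called, and so short a list cannot be set apart from those shares. *Odc1*, the first enzyme of polyamine synthesis, read 69.1, 90.4 and 78.1 FPKM in ILC2act and 33.6 and 32.5 FPKM in Treg10-. *Ass1*, which rebuilds arginine from citrulline, read 16.3, 10.4 and 7.79 FPKM in ILC2act and 48.2 and 31.1 FPKM in Treg10-, a log2 difference of -1.82 (SE 0.33, limma adjusted p = 0.00509). The call for *Ass1* was lost without Treg10- 1 or Treg10- 2, with log2 differences of -1.502 to -2.13 (limma adjusted p = 0.0758 to 0.144). Between them, *Srm*, *Sms*, *Asl* and *Oaz1* had log2 differences of -0.11, 0.18, 0.04 and 0.19 and were not called. *Amd1* read 11.8, 13.9 and 0.0371 FPKM in ILC2act and 17.1 and 13.7 FPKM in Treg10-, so that ILC2act 3 stood apart from the other 4 libraries. The isoenzyme *Arg2* and the nitric oxide synthase *Nos2* were below 1 FPKM in every library.

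Lipid uptake and eicosanoid genes were higher in ILC2act in 10 of 14 tested cases and in Treg10- in 1 (median 1.88). *Alox5*, the 5-lipoxygenase that starts leukotriene synthesis, read 94.1, 100.2 and 78.3 FPKM in ILC2act and 0.241 and 0.0658 FPKM in Treg10-. *Ptgs2*, the inducible cyclooxygenase, read 47.6, 32.3 and 41.6 FPKM in ILC2act and was listed at 0 in both Treg10- libraries. *Ltb4r1*, the leukotriene B4 receptor, read 385, 513 and 357 FPKM in ILC2act and 22.1 and 17.9 FPKM in Treg10-, and *Ptgir*, the prostacyclin receptor, 88.1, 119 and 101 FPKM in ILC2act and 7.598 and 6.88 FPKM in Treg10-. Genes of triglyceride storage were in the same group. *Dgat2* and *Dgat1*, which make triglycerides, differed by 3.73 and 1.94 on the log2 scale. *Plin2*, a coat protein of lipid droplets, read 78.5, 63.2 and 56.3 FPKM in ILC2act and 18.04 and 19.9 FPKM in Treg10-. *Ptger2*, a receptor of prostaglandin E2, was the gene higher in Treg10-, at 2.73, 4.54 and 4.05 FPKM in ILC2act and 9.705 and 7.02 FPKM in Treg10-, a log2 difference of -1.16 (SE 0.27, limma adjusted p = 0.0155). The call for *Ptger2* was lost without ILC2act 1, Treg10- 1 or Treg10- 2, with log2 differences of -0.93 to -1.40 (limma adjusted p = 0.0284 to 0.187). *Ptger4* was not called, with a difference of 0.45.

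Homing genes differed strongly in both directions, with 8 of 26 tested genes higher in ILC2act, 9 higher in Treg10- and a median of 0.06. The shares over all genes tested were 8.72% and 9.46%. Homing genes higher in Treg10- included the receptors for entry into and exit from lymphoid organs. *Cxcr5*, the receptor that leads cells to follicles, read 0.207, 0.1497 and 0.484 FPKM in ILC2act and 39.1 and 36.7 FPKM in Treg10-, and *Ccr6* 0.402, 0.456 and 0.0395 FPKM in ILC2act and 64.7 and 72.4 FPKM in Treg10-. *Cxcr3*, a receptor of type 1 inflammation, read 0.162, 0.294 and 0.393 FPKM in ILC2act and 60.2 and 70.5 FPKM in Treg10-. *S1pr1*, needed to leave tissue along sphingosine-1-phosphate, read 36.3, 27.00 and 31.7 FPKM in ILC2act and 151 and 162 FPKM in Treg10-, and *Klf2*, the factor that induces *S1pr1*, 54.9, 36.1 and 39.9 FPKM in ILC2act and 235 and 302 FPKM in Treg10-. In ILC2act, receptors of tissue residence stood out. *Cxcr6* read 1293, 1603 and 1471 FPKM in ILC2act and 25.2 and 26.9 FPKM in Treg10-, and *Ccr8*, the receptor of CCL1, 799, 1179 and 969 FPKM in ILC2act and 40.3 and 36.3 FPKM in Treg10-. *Cd69*, which retains cells in tissue by opposing S1PR1, read 766, 775 and 715 FPKM in ILC2act and 117 and 84.4 FPKM in Treg10-. *Itgb3*, an integrin beta chain, read 117, 102 and 100.3 FPKM in ILC2act and 11.9 and 16.2 FPKM in Treg10-. Integrin genes that both groups used included *Itgb7*, at 1476, 1497 and 1261 FPKM in ILC2act and 1102 and 1157 FPKM in Treg10-, with a 95% interval of the log2 difference from -0.04 to 0.67, and *Itgal*, at 114, 118 and 118 FPKM in ILC2act and 102 and 132 FPKM in Treg10-.

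Costimulatory and coinhibitory receptors were mostly higher in Treg10- or not called, with 1 of 15 higher in ILC2act and 5 in Treg10- (median -0.66). The shares over all genes tested were 8.72% and 9.46%. *Pdcd1*, the gene for PD-1, was the one higher in ILC2act, at 658, 731 and 658 FPKM in ILC2act and 102 and 83.9 FPKM in Treg10-, a log2 difference of 2.88 (SE 0.13, limma adjusted p = 1.01e-05). *Slamf1* and *Slamf6*, adhesion receptors of the SLAM family, read 0.274, 0.104 and 0 and 4.14, 2.93 and 2.303 FPKM in ILC2act and 37.2 and 28.97 and 101 and 72.6 FPKM in Treg10-. *Btla*, a coinhibitory receptor, read 3.15, 1.57 and 2.41 FPKM in ILC2act and 38.9 and 27.8 FPKM in Treg10-. *Tigit*, another coinhibitory receptor, read 39.2, 26.2 and 27.6 FPKM in ILC2act and 98.6 and 84.8 FPKM in Treg10-, a log2 difference of -1.59 (SE 0.19, limma adjusted p = 7.60e-04). The call for *Tigit* was lost without Treg10- 1, with a log2 difference of -1.48 (limma adjusted p = 0.0639). *Icos*, a costimulatory receptor that ILC2 and Treg cells both use, read 128, 114 and 128 FPKM in ILC2act and 182 and 195 FPKM in Treg10-, under the fold required. *Lag3* ranged from 0.0287 to 2.18 FPKM in the 5 libraries, near the floor of 1, and was not called. On the scale of log2(FPKM + 1) it was higher in Treg10-, with a log2 difference of -1.22 (limma adjusted p = 0.00207). The list of costimulatory and coinhibitory receptors had 3 genes higher in Treg10- without Treg10- 1.

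The TNF superfamily had 4 of 16 tested genes higher in ILC2act and 6 in Treg10- (median -0.56), beside 8.72% and 9.46% over all genes tested. The genes higher in ILC2act were all ligands. *Tnfsf14*, which encodes LIGHT, read 24.9, 35.95 and 27.8 FPKM in ILC2act and 2.67 and 1.93 FPKM in Treg10-. *Tnfsf4*, which encodes the OX40 ligand, read 7.43, 9.14 and 10.7 FPKM in ILC2act and 0.0499 and 0.0921 FPKM in Treg10-, opposite in direction to its receptor gene *Tnfrsf4* above. *Tnfsf11*, which encodes RANKL, read 49.8, 51.2 and 64.1 FPKM in ILC2act and 24.4 and 22.7 FPKM in Treg10-. *Cd70*, the ligand of CD27, read 2.13, 7.58 and 5.09 FPKM in ILC2act and 0.1097 and 0.135 FPKM in Treg10-, a log2 difference of 2.12 (SE 0.49, limma adjusted p = 0.0141). The call for *Cd70* was lost without ILC2act 3, Treg10- 1 or Treg10- 2, with log2 differences of 2.01 to 2.12 (limma adjusted p = 0.0552 to 0.196). Among the genes higher in Treg10-, *Tnfrsf13b*, which encodes TACI, read 2.32, 3.49 and 4.15 FPKM in ILC2act and 34.2 and 37.2 FPKM in Treg10-, *Tnfrsf1a*, the TNF receptor 1 gene, 3.12, 3.22 and 3.08 FPKM in ILC2act and 21.7 and 22.9 FPKM in Treg10-, and *Cd40lg*, the CD40 ligand gene, 2.04, 1.82 and 3.34 FPKM in ILC2act and 19.6 and 17.5 FPKM in Treg10-. *Tnfrsf25*, the receptor of TL1A, read 92.9, 112 and 87.6 FPKM in ILC2act and 57.9 and 60.1 FPKM in Treg10- and was under the fold required.

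*Il10* itself was not at the same level in the 2 reporter-negative groups. It read 16.02, 14.6 and 8.91 FPKM in ILC2act and 0.572 and 1.06 FPKM in Treg10-, so that every ILC2act library was above both Treg10- libraries (log2 difference 3.64 (SE 0.28, limma adjusted p = 1.02e-04)). Of 12 genes of IL-10 and its regulators, 5, *Il10* among them, were higher in ILC2act and 1 in Treg10- (median 0.36). Over all genes tested, 8.72% and 9.46% were called in these directions. *Bhlhe40*, a repressor of *Il10* in T cells, read 584, 719.5 and 709.9 FPKM in ILC2act and 5.18 and 7.04 FPKM in Treg10-, and *Atf3*, a stress-induced factor, 21.4, 40.4 and 22.4 FPKM in ILC2act and 0.317 and 0.0731 FPKM in Treg10-. *Il10ra*, the ligand-binding chain of the IL-10 receptor, read 65.5, 82.2 and 83.4 FPKM in ILC2act and 33.9 and 36.97 FPKM in Treg10-, a log2 difference of 1.11 (SE 0.14, limma adjusted p = 8.56e-04). The call for *Il10ra* was lost without Treg10- 1, with a log2 difference of 1.05 (limma adjusted p = 0.0521). *Ahr*, the aryl hydrocarbon receptor, was higher in ILC2act, at 16.2, 14.3 and 16.5 FPKM in ILC2act and 5.92 and 7.83 FPKM in Treg10-, a log2 difference of 1.20 (SE 0.17, limma adjusted p = 0.00196). The call for *Ahr* was lost without Treg10- 1, with a log2 difference of 1.00 (limma adjusted p = 0.0326). *Socs3*, an inhibitor of cytokine signalling, was higher in Treg10-, at 24.4, 27.2 and 18.7 FPKM in ILC2act and 50.5 and 70.7 FPKM in Treg10-, a log2 difference of -1.37 (SE 0.21, limma adjusted p = 0.00228). The call for *Socs3* was lost without Treg10- 2, with a log2 difference of -1.12 (limma adjusted p = 0.0749). The factors *Maf*, *Prdm1*, *Irf4* and *Batf*, which induce *Il10* in T cells, were not called, with log2 differences of -0.68, -0.92, 0.78 and -0.25. *Maf*, *Prdm1* and *Irf4* missed only the fold required (limma adjusted p = 0.0162, 0.00234 and 0.0332), whereas *Batf* had a limma adjusted p of 0.172. The list of IL-10 and its regulators had 3 genes higher in ILC2act without Treg10- 1, 0 genes higher in Treg10- without Treg10- 2 and 2 genes higher in Treg10- without Treg10- 1.

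Of 12 type 1 and cytotoxic genes, 8 were tested, 1 was higher in ILC2act and 3 in Treg10- (median -0.15), and 4, among them *Ifng*, did not pass the filter. Over all genes tested, 8.72% and 9.46% were called in these directions. *Nkg7*, which encodes a protein of cytotoxic granules, was the gene higher in ILC2act, at 188, 108 and 118 FPKM in ILC2act and 47.6 and 53.7 FPKM in Treg10-. *Tbx21*, the gene for T-bet, read 0.193, 0.0659 and 0.445 FPKM in ILC2act and 3.55 and 4.87 FPKM in Treg10-, and was higher in Treg10-, a log2 difference of -2.06 (SE 0.19, limma adjusted p = 2.59e-04). *Gzmb* read 7.56, 1.15 and 2.53 FPKM in ILC2act and 110.5 and 92.7 FPKM in Treg10-, a log2 difference of -5.17 (SE 0.69, limma adjusted p = 0.00128). The call for *Gzmb* was lost without Treg10- 1 or Treg10- 2, with log2 differences of -5.05 to -5.30 (limma adjusted p = 0.07797 to 0.0908). *Gzma* was not called, since it read 258, 20.5 and 65.8 FPKM in the 3 ILC2act libraries and 16.6 and 11.4 FPKM in Treg10-, and the groups were separate but the ILC2act range was more than 10-fold. The list of type 1 and cytotoxic genes had 0 genes higher in ILC2act without Treg10- 1 or Treg10- 2, 2 genes higher in ILC2act without ILC2act 2 and 1 gene higher in Treg10- without Treg10- 1 or Treg10- 2.

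Some programmes differed by less than the fold required. None of 16 genes of DNA replication and none of 16 of mitosis was called in either direction (median log2 differences 0.53 and 0.40), although 15 and 16 of them lay above 0. By limma, 11 of the replication genes and 4 of the mitosis genes had an unadjusted p below 0.05, and 7 and 2 an adjusted p below 0.05 with a difference under 2-fold. The per-gene equal-variance test called 0 genes of either list. *Pcna* read 164, 113 and 131 FPKM in ILC2act and 127 and 115 FPKM in Treg10-, *Mki67* 43.6, 32.3 and 34.8 FPKM in ILC2act and 21.7 and 32.01 FPKM in Treg10-, and *Top2a* 103, 72.6 and 84.02 FPKM in ILC2act and 51.3 and 57.6 FPKM in Treg10-. *Gins2*, a replication factor, had the largest difference of the 2 lists, a log2 difference of 0.94 (SE 0.15, limma adjusted p = 0.00336). In the other table of the series, all 32 genes were higher after IL-33 in lung ILC2, against 9.36% of all genes tested in both tables. The series holds no Treg cells from mice without IL-33, so its part in the Treg10- values was not tested. Of 17 glycolysis genes, 1 was higher in ILC2act and 1 in Treg10- (median 0.26), no more than the 8.72% and 9.46% over all genes tested. *Pkm*, *Gapdh* and *Eno1* read 509 to 589.8, 767 to 1051 and 219.6 to 269 FPKM over the 5 libraries. *Pdk1*, which keeps pyruvate from the mitochondria, was the gene higher in Treg10-, at 13.9, 16.8 and 15.3 FPKM in ILC2act and 48.5 and 42.95 FPKM in Treg10-. *Hk2* was the gene higher in ILC2act, at 2.36, 2.401 and 3.37 FPKM in ILC2act and 0.3702 and 0.887 FPKM in Treg10-. The call for *Hk2* was lost without Treg10- 1 or Treg10- 2, with log2 differences of 1.42 (limma adjusted p = 0.0548 to 0.0594). The list of DNA replication and G1/S had 1 gene higher in ILC2act without ILC2act 2 or ILC2act 3.

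Genes of class II antigen presentation were read at high levels in both groups. *Cd74*, the invariant chain, read 746, 898 and 925 FPKM in ILC2act and 569 and 976 FPKM in Treg10-, and *H2-Ab1* 203, 218 and 228 FPKM in ILC2act and 116 and 192 FPKM in Treg10-. Of 7 genes, 1 (*H2-DMb1*, log2 difference 1.05 (SE 0.29, limma adjusted p = 0.0268)) was called, towards ILC2act, against 8.72% over all genes tested. The call for *H2-DMb1* was lost without ILC2act 1, ILC2act 2, ILC2act 3 or Treg10- 1, with log2 differences of 0.54 to 1.07 (limma adjusted p = 0.0435 to 0.0845). B cell genes, which can bring class II transcripts with them, are given below. Of the BCL2 family, 2 of 11 genes were higher in ILC2act and 3 in Treg10- (median -0.23), beside 8.72% and 9.46% over all genes tested. *Bid*, a death agonist, read 11.3, 8.99 and 10.2 FPKM in ILC2act and 46.7 and 44.9 FPKM in Treg10-, and *Mcl1*, a survival factor, 67.6, 69.6 and 67.1 FPKM in ILC2act and 145 and 144 FPKM in Treg10-. *Bcl2* read 14.9, 20.7 and 21.4 FPKM in ILC2act and 16.4 and 15.2 FPKM in Treg10- and *Bax* 115, 118 and 105 FPKM in ILC2act and 118 and 99.9 FPKM in Treg10-, with no call. The list of MHC class II presentation had 0 genes higher in ILC2act without ILC2act 1, ILC2act 2, ILC2act 3 or Treg10- 1 and 3 genes higher in ILC2act without Treg10- 2. The list of BCL2 family had 1 gene higher in ILC2act without ILC2act 1, ILC2act 2, Treg10- 1 or Treg10- 2.

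Interferon-stimulated and GIMAP genes were one-sided towards Treg10-. Of 14 interferon-stimulated genes, 12 were higher in Treg10- and none in ILC2act (median -2.06). The calls for *Isg15*, *Irf7* and *Usp18* were lost without Treg10- 1, with log2 differences of -1.87, -1.65 and -2.47. *Isg15* also lost the call by the per-gene equal-variance test (adjusted p = 0.0728). *Iigp1* and *Ifit1*, effectors against intracellular pathogens and viral RNA, read 1.16, 0.415 and 0.651 and 1.04, 1.197 and 0.618 FPKM in ILC2act and 27.5 and 17.5 and 26.1 and 15.4 FPKM in Treg10-. *Bst2* and *Oasl2* were not called, with differences of -0.58 and -0.92. Of 8 GIMAP genes, which encode GTPases of lymphocyte survival that lie in 1 cluster on chromosome 6, 5 were higher in Treg10- and none in ILC2act (median -1.86). *Gimap3* read 199, 182 and 156 FPKM in ILC2act and 789 and 762 FPKM in Treg10-, and *Gimap6* 263, 210.0 and 228 FPKM in ILC2act and 747 and 673 FPKM in Treg10-. *Gimap1*, at 211, 224 and 178 FPKM in ILC2act and 331 and 316 FPKM in Treg10-, was not called. The list of GIMAP GTPases had 3 genes higher in Treg10- without Treg10- 1.

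Immediate early genes, a list added after the values were seen, were nearly all higher in ILC2act. They encode short-lived factors and regulators that cells induce soon after a stimulus. Of 23 tested genes, 21 were higher in ILC2act and 1 in Treg10- (median 3.38). *Fos* read 490.0, 665 and 605 FPKM in ILC2act and 3.41 and 3.86 FPKM in Treg10-, and *Fosb* 56.9, 85.7 and 77.98 FPKM in ILC2act and 0.118 and 0.169 FPKM in Treg10-. *Nr4a1*, an orphan nuclear receptor, read 1291, 1726 and 1440.1 FPKM in ILC2act and 29.5 and 30.4 FPKM in Treg10-. *Rgs2*, a regulator of G protein signalling, read 299, 398 and 350.1 FPKM in ILC2act and 2.83 and 2.72 FPKM in Treg10-, and *Dusp1*, a phosphatase of MAP kinases, 736, 752 and 725 FPKM in ILC2act and 32.1 and 28.96 FPKM in Treg10-. *Egr1* read 169.6, 208 and 214 FPKM in ILC2act and 15.3 and 18.4 FPKM in Treg10-, and *Junb*, at 1747, 2803 and 1945 FPKM in ILC2act and 137 and 162 FPKM in Treg10-, was the most abundant of the list. *Dusp2*, a phosphatase of T cells, was the gene higher in Treg10-, at 39.6, 42.4 and 29.8 FPKM in ILC2act and 95.5 and 92.3 FPKM in Treg10-, a log2 difference of -1.35 (SE 0.16, limma adjusted p = 7.80e-04). The call for *Dusp2* was lost without Treg10- 1 or Treg10- 2, with log2 differences of -1.32 to -1.37 (limma adjusted p = 0.0523 to 0.0596). In the other table of the series, which holds only lung ILC2, *Fos* was at 654, 922 and 676 FPKM after PBS and 267 and 516 FPKM after IL-33. Whether lineage or the handling of the organs goes with these genes cannot be told apart. Genes of the hypoxia response, also chosen afterwards, were mixed, with 2 of 10 higher in ILC2act and 3 in Treg10- (median -0.33). Over all genes tested, 8.72% and 9.46% were called in these directions. *Hilpda*, which blocks triglyceride breakdown, read 1151, 1104 and 998 FPKM in ILC2act and 25.4 and 16.2 FPKM in Treg10-. *P4ha1*, a prolyl hydroxylase, read 2.37, 3.45 and 4.37 FPKM in ILC2act and 21.8 and 23.1 FPKM in Treg10-. The list of hypoxia response had 1 gene higher in ILC2act without Treg10- 1 or Treg10- 2 and 1 gene higher in Treg10- without Treg10- 1 or Treg10- 2.

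**Figure D4:**
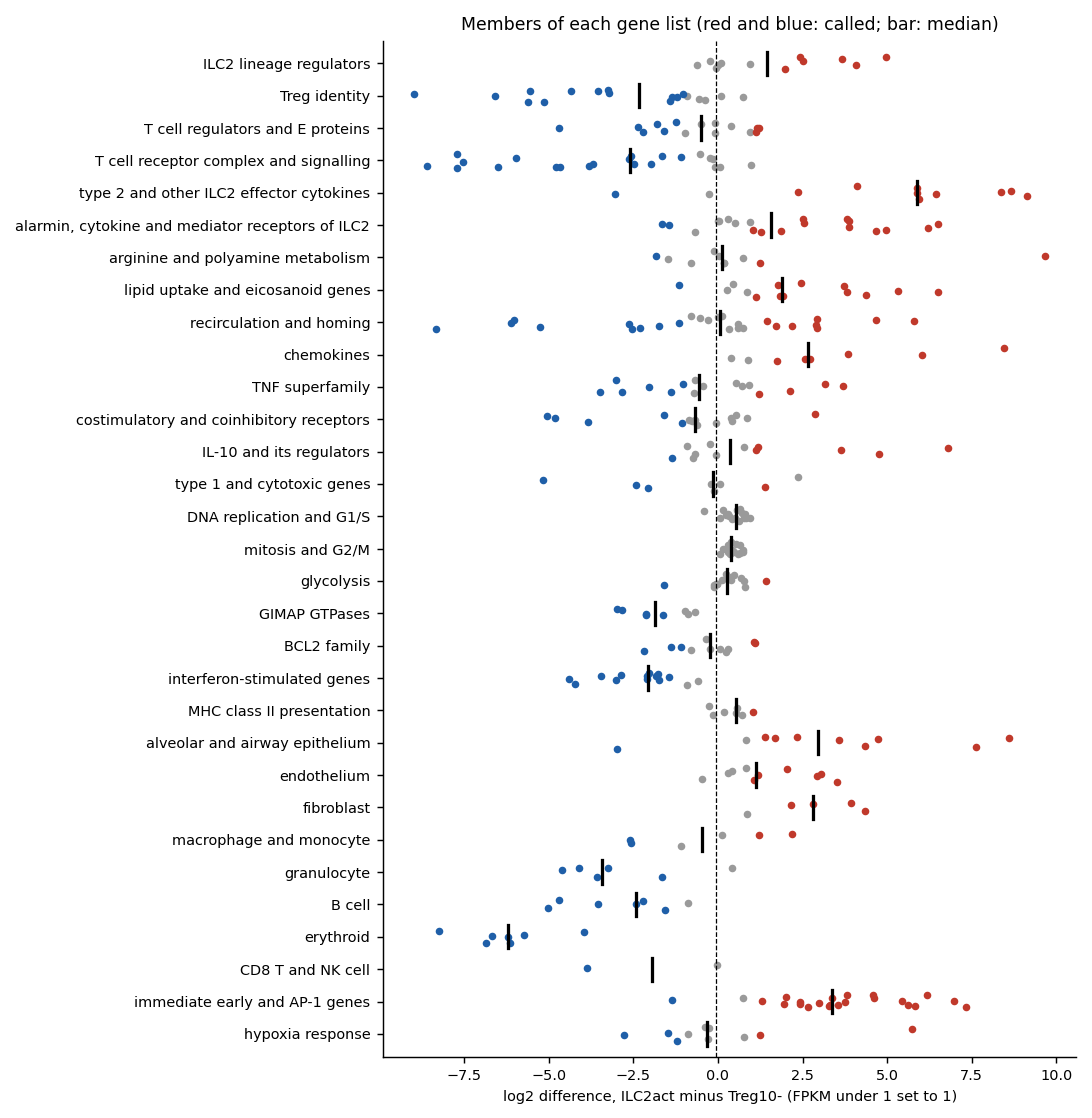
Log2 difference (ILC2act minus Treg10-) of every tested member of 31 gene lists, with members called in red (higher in ILC2act) or blue (higher in Treg10-), the others in grey, the list median as a bar and the median of all genes (-0.05) as a dashed line. The last 2 lists were added after the values were seen, and the 8 lists from epithelium to CD8 T and NK cell hold genes of other cell types.

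Marker genes of other cell types also differed between the groups. For comparison, 8.72% of all genes tested were higher in ILC2act and 9.46% in Treg10-. Among epithelial genes, 8 of 10 tested were higher in ILC2act. *Sftpc*, the surfactant protein of alveolar type II cells, read 354, 364 and 447 FPKM in ILC2act and was listed at 0 in both Treg10- libraries. *Scgb1a1*, the secretoglobin of club cells, read 152, 105 and 474 FPKM in ILC2act and 0 and 0.6503 FPKM in Treg10-, so that ILC2act 3 was more than 3-fold above ILC2act 1 and 2. *Epcam*, an adhesion molecule of epithelia, was higher in Treg10-, at 0.905, 2.28 and 1.22 FPKM in ILC2act and 13.9 and 8.79 FPKM in Treg10-. The call for *Epcam* was lost without Treg10- 1, with a log2 difference of -2.64 (limma adjusted p = 0.07200). Of 10 endothelial genes, 6 were higher in ILC2act and 4 were not called, and the list summed to 102 to 118 FPKM in ILC2act and 52.1 and 51.5 FPKM in Treg10-. *Cldn5*, a tight junction gene, read 7.75, 7.19 and 7.85 FPKM in ILC2act and was listed at 0 in both Treg10- libraries, whereas *Pecam1*, which leukocytes also express, read 32.7, 25.03 and 29.5 FPKM in ILC2act and 40.2 and 40.6 FPKM in Treg10- and was not called. *Mgp*, a matrix gene of fibroblasts, read 10.2, 18.2 and 19.05 FPKM in ILC2act and was listed at 0 in both Treg10- libraries. Fibroblast genes summed to 36.0 to 69.4 FPKM in ILC2act and 0.957 and 1.11 FPKM in Treg10-. In Treg10-, B cell genes summed to 153 and 262 FPKM and granulocyte genes to 124 and 287 FPKM, against 49.4 to 77.9 and 9.34 to 21.7 FPKM in ILC2act. *Cd79a*, a chain of the B cell receptor, read 0.566, 0.826 and 1.26 FPKM in ILC2act and 24.8 and 48.3 FPKM in Treg10-, and *S100a8*, a calcium-binding protein of neutrophils, 6.22, 3.81 and 6.79 FPKM in ILC2act and 63.97 and 139 FPKM in Treg10-. The globin and erythroid genes were 7 of 7 higher in Treg10-, with *Hbb-bs* at 4.63, 6.09 and 13.9 FPKM in ILC2act and 1307 and 3713 FPKM in Treg10-. By the per-gene equal-variance test, both entries of *Hba-a2* and *Hbb-b1* lost the call (adjusted p = 0.138, 0.106 and 0.0515). Globin genes are near-identical copies between which reads can be split, and for *Hba-a2* and *Hbb-b1* they were read at 0.0189 FPKM or less in some ILC2act libraries and at 9.84 to 28.6 FPKM in another, so single globin values are uncertain. In the B cell, granulocyte and erythroid lists Treg10- 2 was above Treg10- 1. Macrophage and monocyte genes lay in both directions, with 2 of 6 tested higher in ILC2act and 2 in Treg10-, and summed to 71.5 to 113 FPKM in ILC2act and 32.9 and 93.7 FPKM in Treg10-. *Chil3*, a gene of alveolar macrophages, read 20.3, 38.96 and 31.5 FPKM in ILC2act and 3.52 and 11.5 FPKM in Treg10-, and the complement gene *C1qb* 0.634, 0.7804 and 1.79 FPKM in ILC2act and 4.08 and 13.02 FPKM in Treg10-. The list of macrophage and monocyte had 0 genes higher in ILC2act without ILC2act 3 or Treg10- 1, 1 gene higher in ILC2act without ILC2act 2 or Treg10- 2 and 1 gene higher in Treg10- without Treg10- 2. Of 6 CD8 T and NK cell genes, 2 were tested and 1 was higher in Treg10-, the coreceptor gene *Cd8b1*, at 0.122, 0.259 and 0.472 FPKM in ILC2act and 14.8 and 14.4 FPKM in Treg10-. In bulk libraries, fewer cells of a type and less RNA per cell cannot be told apart.

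**Figure D5:**
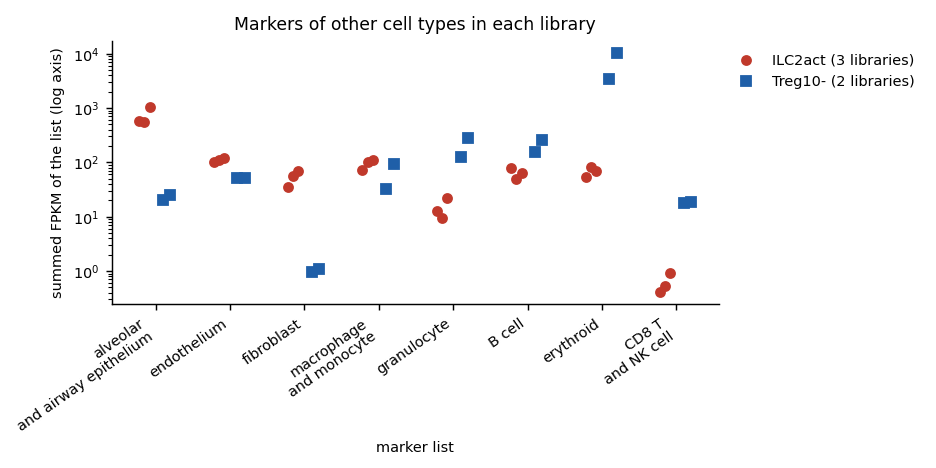
Summed FPKM of 8 marker lists of other cell types in each library (log axis; circles, 3 ILC2act libraries; squares, 2 Treg10- libraries). Epithelial and fibroblast lists lie above in ILC2act, and granulocyte, B cell and erythroid lists lie above in Treg10-.

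The other table of the series, which was normalized separately, holds total lung ILC2, not split by the reporter, from mice given IL-33 or PBS. Per the paper, its libraries were sequenced on an Ion Proton and the reporter libraries on a NextSeq. Calls are therefore set side by side, and no gene was tested across the tables. Levels placed beside those of the other table, as for *Thy1* above, carry no test and also differ in platform. Of 11308 genes, 10757 were tested in both tables, and 9.36% of these were higher and 12.5% lower after IL-33. Of the 973 genes higher in ILC2act that were tested in both, 135 (13.9%) were higher and 322 (33.1%) lower after IL-33, and 916 (94.1%) were above 1 FPKM in every PBS library. For the 898 genes higher in Treg10-, 74 (8.24%) were higher and 232 (25.8%) lower. Without the listed markers of other cell types, the 13.9% became 14.2%, against 9.40% over all genes tested in both tables. *Il13*, *Il4* and *Il6* were higher after IL-33, by 2.11, 2.55 and 2.85 on the log2 scale, as were *Il1r2* (4.80) and *Il17rb* (1.83). *Ccl1*, which read 1070.2, 724 and 1065 FPKM after PBS (3 libraries) and 148 and 54.5 FPKM after IL-33 (2 libraries), was lower after IL-33, and so were *Csf2* and *Il2* (-1.16 and -3.68). *Il5*, with a log2 difference of 1.10, was not called there. Of the immediate early genes, 2 were higher and 10 lower after IL-33, and of the 31 list members of epithelium, endothelium, fibroblasts and macrophages tested in that table, all 31 were lower.

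The largest spread within a group was that of small RNA genes. *Mir762* read 0, 186 and 358 FPKM, *Snora31* 0, 139 and 32.7 FPKM and *Snord96a* 103, 0 and 0 FPKM in ILC2act. In Treg10-, *Mir5136* read 253 and 0 FPKM. None of the 4 was called. Of the genes in the lists, 37 did not pass the filter on low values and have no test.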

How the data were processed

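RNA-seq values of 3 ILC2act and 2 Treg10- libraries were analysed. Per the submitters' notes the authors used TopHat2 2.1.0 on GRCm38, and Cufflinks 2.2.1 gave the deposited FPKM of each gene. A value of 0 is written as 0.001 in the table and was read as 0. Genes that Cufflinks marked for low data (312) and those lacking a value (5) were dropped, and 27 symbols that had been turned into dates were kept without a name. Depth and read counts are not given. FPKM were floored at 1, put on the log2 scale and compared with limma 3.58.1 under R 4.3.3, using lmFit and a trended eBayes, with Benjamini-Hochberg adjustment over 11308 genes. The table of lung ILC2 after IL-33 or PBS (deposited as FPKM) was tested the same way on 12565 genes. The fit was first tested on simulated data. Python 3.11.15 was used for other steps.

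Gene lists, the members and the tests were chosen with earlier results of these data known. Named genes were the 5 markers, genes the study names for these libraries, the 15 of largest difference in each direction, in each list up to 4 called members per direction and up to 3 others of highest mean, 15 shared genes and the 3 of widest range in each group. Other list members are named as examples, chosen after their values were seen, and so were the immediate early and hypoxia lists and the AP-1 motif. Alternatives were other scales, filters, tests, scalings and fold thresholds, all 10 reporter libraries in 1 fit, and each library left out. Results of a few list members are not reported here, and the list counts include them.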

Additional observations from a re-analysis of the deposited data

How the results depend on the processing

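With genes of a mean of at least 5 FPKM only, 603 genes were higher in ILC2act and 601 in Treg10-, since fewer genes were tested. Without a fold threshold the counts were 1863 and 2328, and at a fold of at least 4 they were 418 and 364. Under the other settings, between 719 and 1238 genes were higher in ILC2act and between 754 and 1198 in Treg10-. The lowest count for ILC2act came without Treg10- 1. With 1 Treg10- library left out, the other is assumed to vary like the ILC2act libraries, and 1416 (without Treg10- 1) and 1513 (without Treg10- 2) of the 2056 calls were kept. Of the 400 list members and named genes, 236 were called, 58 symbols lost the call under at least 1 alternative and none reversed. The share of genes higher in ILC2act that were higher after IL-33 was 20.1% without a fold threshold in both tables. At that setting the share over all genes tested in both tables rose as well. The 20.1% therefore cannot be set against the share over all genes at the main setting. No paired analysis was possible because nothing in the names of the Treg10- libraries ties either of them to a particular ILC2act library. Read counts are not given, so genes near 1 FPKM cannot be weighed by depth.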
